A study of Bos taurus with 32 samples.

Results

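The complement components, coagulation factors and serpins of the bovine liver were examined as 1 group of 53 genes among the 9155 genes that could be named on the array. The genes were taken by symbol: complement components and their proteases, C4b-binding protein, other complement factors, the MASP proteases, the numbered coagulation factors, every gene named SERPIN, and FGA, FGG, PLG, KLKB1, PROC, PROS1 and VTN. The hormone carriers SERPINA6 and SERPINA7 and the collagen chaperone SERPINH1 were left out. Of the symbols sought, FGA, KLKB1, F7, F8 and F11 were not analysed here. The 53 genes had 77 probe sets. Each gene is described by its brightest probe set on average, and 18 genes had more than 1 probe set. By role, 9 genes belong to classical and lectin activation, 3 to C3 and the alternative pathway, 7 to the terminal pathway and 5 to complement regulation. A further 8 are coagulation factors or fibrinogen, 5 are anticoagulant, 2 act in fibrinolysis, 4 are other plasma serpins and 8 are tissue or intracellular serpins. C1QBP and C1D matched the symbols by name only, and neither is a complement component.

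The samples were liver biopsies of Ayrshire dairy cows, a dairy breed, which were fed a high-energy diet (HIGH) or a controlled-energy diet (CON) for the last 6 weeks before predicted calving. Each biopsy was measured on 1 Affymetrix bovine array at 8 days before predicted calving (-8 d) or at 1 d or 9 d after actual calving. Each diet had 5 arrays at -8 d and 6 arrays at 9 d, and at 1 d there were 6 HIGH and 4 CON arrays. The 32 arrays came from 12 cows, 6 in each diet, and 8 cows (5 HIGH and 3 CON) had arrays on all 3 days. In both diets the -8 d arrays precede calving and the 1 d and 9 d arrays follow it and the onset of lactation. No group of cows that did not calve was analysed here.

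Hepatocytes make most of the complement and clotting proteins of plasma. Complement is a cascade of proteases that starts from antibody-bound C1, from lectins or from spontaneous turnover of C3, converges on C3 and ends in a pore built from C5 to C9. Coagulation is a second cascade that ends in thrombin and fibrin, held in check by antithrombin, heparin cofactor II and the protein C system and undone by plasmin. Serpins are inhibitors that trap their target protease by a change of shape, and they act on both cascades. In an acute phase response the liver raises some of these proteins and lowers others.

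Values are log2 values that the authors deposited, made with Robust Multi-array Average (RMA), which adjusts all arrays to 1 distribution.  The means of the 53 genes over all arrays ran from 3.38 to 14.67, with 20 genes above 13 and 9 below 7. Values near the upper end of the scale may be compressed, which was not tested. The liver label was checked against 14 hepatocyte markers, whose mean on an array was 13.73 to 13.92 (ALB 14.94, TF 14.62, CPS1 13.81). Of these 14 markers 3 rose and 8 fell at 1 d against -8 d, and the mean on an array was 13.73 to 13.84 at 1 d against 13.76 to 13.89 at -8 d. The array CON 9 d replicate 6 stood apart in the 3' minus 5' difference of the actin control (3.87, against at most 2.20 on the other 31 arrays). Without it, 21 genes were called over calving, 7 at 9 d against -8 d and 17 from 1 d to 9 d, against 21, 8 and 18 with all arrays. The control difference of elongation factor moved with the days: -0.684 ± 0.119 (SD, n = 10) at -8 d, -1.07 ± 0.154 over the 10 arrays of 1 d and -0.81 ± 0.134 over the 12 arrays of 9 d. Of 7 neutrophil markers, 4 rose at 1 d, and the mean of the list on an array was 6.76 to 8.11 at 1 d against 6.01 to 6.64 at -8 d. Of 11 T and NK cell markers, 5 fell and 0 rose at 1 d (median -0.20). Over all genes, 16.5% rose and 12.3% fell at 1 d against -8 d. The part of RNA quality, hepatocyte share, neutrophils and T and NK cells in the changes at 1 d was not tested. In a whole biopsy, fewer cells of a type and less RNA per cell cannot be told apart.

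At 1 d against -8 d, averaged over the diets, 12 of the 53 genes rose and 9 fell by limma (adjusted p under 0.05 over all 24016 probe sets tested), which is 39.6% of the genes beside 28.8% of all 9155 genes (16.5% rose and 12.3% fell). The largest rises were in SERPINA14, SERPINB8, SERPINA3-7, SERPINF2, F5, SERPINA11 and SERPINI2, and the largest falls in SERPIND1, CFD, F12, F10 and PROC. The median log2 fold change was 0.02 for the 53 genes and 0.000355 for all genes. From 1 d to 9 d, 4 genes rose and 14 fell (34%, beside 17.5% of all genes). Of all genes, 7.44% rose and 10% fell in that comparison. At 9 d against -8 d, 2 of the 53 rose (7.79% of all genes did) and 6 fell (5.08%), together 15.1% beside 12.9%. The 53 genes were brighter than most: the median of the mean levels was 12.12 for them and 7.22 for all genes. The shares over all genes, here and below, were not matched for level, and the part of level in them was not tested. The 53 genes were chosen with earlier results of these data known, so these shares are descriptions.

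**Figure D1:**
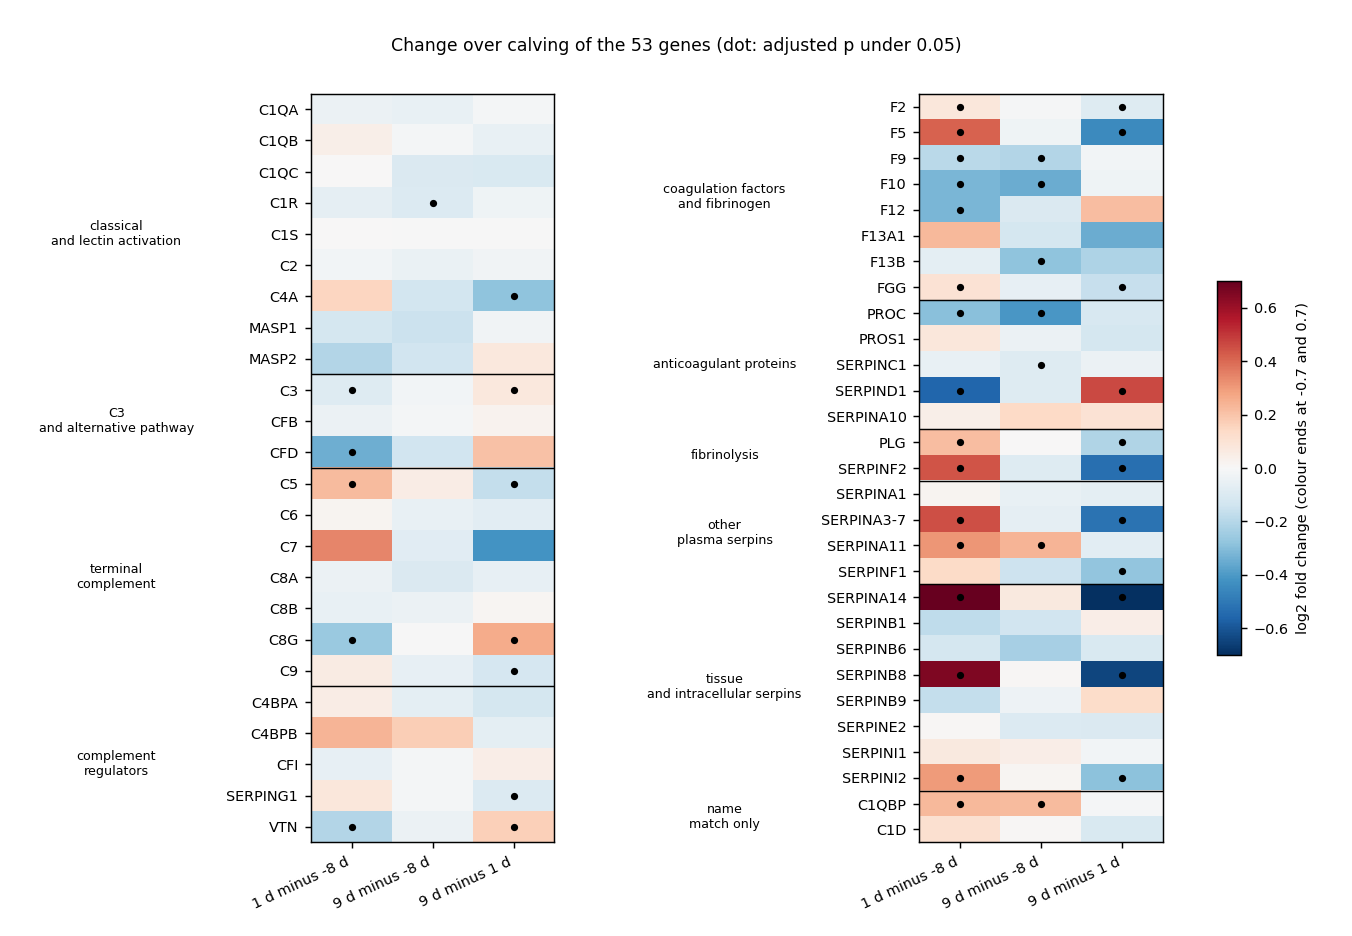
Log2 fold change of each of the 53 genes (rows, grouped by role) in the 3 comparisons of days averaged over the diets (columns); red is higher and blue lower on the later day, and a black dot marks an adjusted p under 0.05. Of the 21 genes called at 1 d against -8 d, 10 that rose fell again by 9 d and 4 that fell rose again, while 5 genes were called in the same direction on both days after calving. These patterns were not counted over all genes.

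Of the 53 genes, 28 were called in at least 1 of the 3 comparisons of days. This count and the patterns that follow were not counted over all 9155 genes, so they only describe the 53. C5, F2, F5, FGG, PLG, SERPINF2, SERPINA3-7, SERPINA14, SERPINB8 and SERPINI2 were higher at 1 d than at -8 d and lower at 9 d than at 1 d. C3, C8G, VTN and SERPIND1 were lower at 1 d than at -8 d and higher at 9 d than at 1 d. The comparisons share the 1 d arrays, so an opposite sign is partly fixed by their construction. F9, F10 and PROC were below -8 d on both days after calving, and SERPINA11 and C1QBP above it. Of the other 9 genes with a call, CFD and F12 were called at 1 d against -8 d only, C1R, F13B and SERPINC1 at 9 d against -8 d only, and C4A, C9, SERPING1 and SERPINF1 from 1 d to 9 d only. The remaining 25 genes were called in none.

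None of the 9 genes of classical and lectin activation passed at 1 d against -8 d, 1 fell at 9 d against -8 d and 1 fell from 1 d to 9 d. The chains of C1q, the antibody-binding part of C1, are made by macrophages rather than hepatocytes in other mammals. C1QA had medians of 12.15 at -8 d, 12.07 at 1 d and 12.13 at 9 d, within a range of 11.64 to 12.64 over all arrays. C1QB and C1QC had log2 fold changes of 0.04 (SE 0.10) and 0.00 (SE 0.10) over calving. Of 8 Kupffer cell and macrophage markers 1 rose and 1 fell over calving, and the mean of the list was 9.35 at -8 d, 9.40 at 1 d and 9.17 at 9 d. C1R and C1S, the proteases of C1, lie next to each other in the genome. C1R fell by 0.10 at 9 d against -8 d (SE 0.03, adjusted p = 0.0493), a call lost when any of 22 of the 32 arrays was left out. C1S was at -0.00 (SE 0.04) in the same comparison.

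C4A, the thioester protein of the classical C3 convertase, was the member of this group with a clear change between days. It ran from 13.16 to 13.69 (median 13.37) at -8 d, from 13.36 to 13.74 (median 13.555) at 1 d and from 13.02 to 13.58 (median 13.225) at 9 d. It fell from 1 d to 9 d by 0.28 (SE 0.06, adjusted p = 0.00232) and was lower in 10 of 10 cows with both days, although the ranges of the 2 days overlapped. Cattle carry more than 1 copy of C4, which the probe set may not tell apart. C2, its protease partner, was at -0.02 (SE 0.13) over calving. Its neighbour CFB, the equivalent protease of the alternative pathway, was at -0.04 (SE 0.03), with means of 14.25 ± 0.05 (SD, n = 6) in HIGH and 14.24 ± 0.05 (n = 4) in CON at 1 d.

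MASP1 and MASP2, the proteases of the lectin pathway, did not pass with the probe set of highest mean (-0.13, SE 0.07, and -0.20, SE 0.09, over calving). Another MASP2 probe set, with a mean of 7.29, rose over calving by 0.47 (SE 0.07, adjusted p = 1.95e-05), with 7.32 to 7.84 at 1 d against 6.95 to 7.31 at -8 d. These ranges did not overlap, and the remaining 2 MASP2 probe sets, with means of 4.75 and 3.57, were at -0.05 and -0.01. The direction for MASP2 therefore depended on the probe set. A probe set of MASP1 with a mean of 5.11 fell from 1 d to 9 d by 0.38 (SE 0.10, adjusted p = 0.0112).

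C3, on which all 3 pathways converge, fell over calving in each of its 3 probe sets. The one with the highest mean ran from 14.58 to 14.70 at -8 d, from 14.45 to 14.61 at 1 d and from 14.52 to 14.67 at 9 d, and fell by 0.09 at 1 d (SE 0.03, adjusted p = 0.00929), in 7 of 8 cows. A probe set with a mean of 14.35 fell by 0.18 (SE 0.04, adjusted p = 0.000499). The remaining one, with a mean of 10.70, fell by 0.71 (SE 0.16, adjusted p = 0.00104), with a median of 10.335 at 1 d against 11.01 at -8 d. The direction was common to the 3 probe sets and the size was not. The rise of C3 from 1 d to 9 d (0.07, SE 0.02, adjusted p = 0.0438) was lost in 19 of 32 fits without 1 array.

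CFD, factor D, which cleaves factor B, fell over calving by 0.34 (SE 0.11, adjusted p = 0.0214) and was lower at 1 d in 8 of 8 cows. It ran from 10.79 to 11.96 (median 11.45) at -8 d, from 10.77 to 11.51 (median 11.195) at 1 d and from 10.91 to 11.79 (median 11.375) at 9 d. The ranges overlapped widely, and the call was lost without CON -8 d replicate 2 (-0.29, adjusted p = 0.0531) and without CON 1 d replicate 1 (-0.30, adjusted p = 0.0562). At 9 d CFD was at -0.14 (SE 0.10) against -8 d.

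Of the 7 terminal components, C5 rose and C8G fell over calving, and C6, C7, C8A, C8B and C9 did not pass. C5, whose cleavage starts assembly of the pore, ran from 12.75 to 13.24 at -8 d, from 12.97 to 13.28 at 1 d and from 12.74 to 13.28 at 9 d. It rose by 0.22 (SE 0.06, adjusted p = 0.00512) in 8 of 8 cows and fell from 1 d to 9 d by 0.17 (SE 0.05, adjusted p = 0.0357) in 10 of 10 cows. The second of these calls was lost in 10 of 32 fits without 1 array, and with no replicate block (adjusted p = 0.0906). Its groups overlapped on all days. C8G, the lipocalin chain of C8, fell by 0.26 (SE 0.07, adjusted p = 0.00438), with 11.30 to 11.97 at 1 d against 11.70 to 12.08 at -8 d, and returned by 0.26 by 9 d (SE 0.06, adjusted p = 0.00534). The other C8 chains, C8A and C8B, which lie side by side in the genome, were at -0.04 (SE 0.04) and -0.05 (SE 0.06).

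C9, the pore former, had 14.15 to 14.21 at 1 d, a narrow range, against 14.05 to 14.17 at -8 d and 13.87 to 14.15 at 9 d. It fell from 1 d to 9 d by 0.12 (SE 0.03, adjusted p = 0.0035), in 10 of 10 cows. C7, the component that first inserts into membrane, had the widest spread of the complement genes: 7.62 to 9.36 at -8 d, 7.69 to 9.68 at 1 d and 6.79 to 9.75 at 9 d. Its log2 fold change over calving was 0.34 (SE 0.30), and it was higher at 1 d in 7 of 8 cows but did not pass. C6 was at 0.02 in both of its probe sets (means 13.58 and 8.64).

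Among the complement regulators, VTN fell and returned, and C4BPA, C4BPB, CFI and SERPING1 did not pass over calving. VTN, vitronectin, binds the forming pore and keeps it out of membranes. It ran from 14.43 to 14.54 at -8 d, from 14.20 to 14.34 at 1 d and from 14.32 to 14.50 at 9 d. The 1 d values all lay below the -8 d values. VTN fell by 0.20 (SE 0.02, adjusted p = 1.33e-07) in 8 of 8 cows and rose by 0.17 from 1 d to 9 d (SE 0.02, adjusted p = 3.14e-06) in 10 of 10 cows. Its level lies near the upper end of the scale, where compression is possible and was not tested.

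SERPING1, the C1 inhibitor, which also restrains factor XII and kallikrein, was at 0.08 (SE 0.03) over calving and fell by 0.10 from 1 d to 9 d (SE 0.03, adjusted p = 0.0377). That call was lost in 12 of 32 fits without 1 array. C4BPA and C4BPB, the neighbouring genes of C4b-binding protein, were at 0.05 (SE 0.05) and 0.24 (SE 0.13). C4BPB varied from 9.67 to 10.86 over the arrays. CFI, which cleaves C3b and C4b, stayed between 13.77 and 14.06 (-0.06 over calving, SE 0.03).

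Among the 8 coagulation factors and fibrinogen genes, F5, FGG and F2 rose over calving and F9, F10 and F12 fell. F5, the cofactor of factor Xa, ran from 12.19 to 12.56 (median 12.34) at -8 d, from 12.53 to 12.97 (median 12.785) at 1 d and from 12.01 to 12.51 (median 12.365) at 9 d. All 1 d values lay above all 9 d values, and only the ends of the 1 d and -8 d ranges overlapped. F5 rose by 0.41 (1.33-fold, SE 0.06, adjusted p = 3.34e-06) in 8 of 8 cows and fell by 0.44 from 1 d to 9 d (SE 0.05, adjusted p = 9.17e-07) in 10 of 10. FGG, the gamma chain of fibrinogen, rose by 0.10 (SE 0.03, adjusted p = 0.0085) in 8 of 8 cows, with 14.71 to 14.80 at 1 d against 14.60 to 14.74 at -8 d. These are among the highest values measured, and whether the size of its change is compressed was not tested.

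The vitamin K-dependent proteins did not move together. F10, factor X, ran from 11.56 to 11.82 (median 11.685) at -8 d, from 11.11 to 11.63 (median 11.415) at 1 d and from 11.20 to 11.66 (median 11.305) at 9 d. It fell by 0.32 at 1 d (SE 0.06, adjusted p = 9.59e-05; lower in 8 of 8 cows) and by 0.35 at 9 d against -8 d (SE 0.05, adjusted p = 5.15e-05; 10 of 10 cows). F9, factor IX, fell by 0.19 at 1 d (SE 0.05, adjusted p = 0.00514; 8 of 8 cows) and by 0.21 at 9 d (SE 0.05, adjusted p = 0.00325; 9 of 10 cows). F2, prothrombin, rose by 0.08 at 1 d (SE 0.02, adjusted p = 0.0142; 8 of 8 cows) and was at -0.01 at 9 d against -8 d. The F2 call at 1 d rested on the brightest probe set, since another with a mean of 5.45 was at 0.04 (SE 0.06, adjusted p = 0.702). F2 fell from 1 d to 9 d by 0.09 (SE 0.02, adjusted p = 0.00684). In the 8 cows that had every day, neither F2 call passed (0.09, adjusted p = 0.0522, and -0.08, adjusted p = 0.112).

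The fall of F9 at 1 d was seen in the probe set of highest mean and not in its other 2, which were at 0.04 (SE 0.08) and 0.02 (SE 0.10). At 9 d against -8 d, all 3 were negative (-0.21, -0.19 and -0.30), and the second of these did not pass. F12, which starts the contact pathway, fell by 0.32 over calving (SE 0.08, adjusted p = 0.00332) in 7 of 8 cows, with medians of 10.145 at -8 d, 9.81 at 1 d and 9.93 at 9 d. F13B, the carrier chain of the fibrin cross-linker factor XIII, did not pass at 1 d (-0.07, SE 0.09) and fell by 0.28 at 9 d against -8 d (SE 0.09, adjusted p = 0.0332) in 9 of 10 cows, a call lost in 10 of 32 fits without 1 array. F13A1, the enzyme chain, which is made by macrophages and megakaryocytes, varied from 5.26 to 7.19 and did not pass (0.23, SE 0.17).

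Of the 5 anticoagulant genes, SERPIND1 and PROC fell over calving. SERPIND1, heparin cofactor II, a thrombin inhibitor, had the largest fall of the 53 genes. It ran from 12.64 to 12.98 (median 12.815) at -8 d, from 11.83 to 12.47 (median 12.245) at 1 d and from 12.54 to 12.93 (median 12.715) at 9 d. Every 1 d value lay below every -8 d and every 9 d value. SERPIND1 fell by 0.55 (0.681-fold, SE 0.06, adjusted p = 4.43e-08) in 8 of 8 cows and rose by 0.46 from 1 d to 9 d (SE 0.05, adjusted p = 5.24e-07) in 10 of 10 cows.

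PROC, protein C, the vitamin K-dependent protease that inactivates factor V, fell on both days. It ran from 11.77 to 12.05 (median 11.86) at -8 d, from 11.37 to 11.76 (median 11.585) at 1 d and from 11.21 to 11.86 (median 11.435) at 9 d. The 1 d values all lay below the -8 d values. PROC fell by 0.29 at 1 d (SE 0.06, adjusted p = 0.000433; 8 of 8 cows) and by 0.41 at 9 d against -8 d (0.754-fold, SE 0.06, adjusted p = 1.27e-05; 10 of 10 cows). Its cofactor PROS1, protein S, was at 0.08 (SE 0.05) at 1 d. SERPINC1, antithrombin, did not pass at 1 d (-0.05, SE 0.03) and fell by 0.09 at 9 d against -8 d (SE 0.02, adjusted p = 0.0169) in 10 of 10 cows. SERPINA10, the protein Z-dependent inhibitor of factor Xa, was at 0.04 (SE 0.09) at 1 d and 0.14 (SE 0.09) at 9 d against -8 d.

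Both fibrinolysis genes rose at 1 d and fell back. PLG, plasminogen, the precursor of the fibrin-cleaving protease, ran from 12.99 to 13.25 at -8 d, from 13.09 to 13.43 at 1 d and from 12.99 to 13.19 at 9 d. It rose by 0.21 (SE 0.04, adjusted p = 0.000193) in 7 of 8 cows, and a second probe set gave 0.22. SERPINF2, antiplasmin, which inhibits plasmin, ran from 11.62 to 12.05 (median 11.855) at -8 d, from 12.03 to 12.50 (median 12.35) at 1 d and from 11.50 to 11.99 (median 11.81) at 9 d. All 1 d values of SERPINF2 lay above all 9 d values.

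SERPINF2 rose by 0.44 at 1 d (1.36-fold, SE 0.06, adjusted p = 1.58e-06) in 8 of 8 cows and fell by 0.53 by 9 d (SE 0.05, adjusted p = 6.79e-08) in 10 of 10. Its second probe set, with a mean of 7.75, was called the opposite way at 1 d (-0.15, SE 0.05, adjusted p = 0.0348), with 7.47 to 7.85 at 1 d against 7.64 to 8.11 at -8 d. SERPINF1, pigment epithelium-derived factor, a serpin without known inhibitory activity that lies close to SERPINF2 in the genome, was at 0.13 (SE 0.06) at 1 d. It fell by 0.28 from 1 d to 9 d (SE 0.06, adjusted p = 0.00198) in 10 of 10 cows.

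Among the other plasma serpins, SERPINA3-7 and SERPINA11 rose over calving and SERPINA1 did not pass. SERPINA3-7 belongs to the bovine family related to human antichymotrypsin, whose near-identical copies the probe set may not tell apart. It ran up to 14.59 (median 14.42) at -8 d, from 14.74 to 14.92 (median 14.85) at 1 d and from 14.05 to 14.64 (median 14.33) at 9 d. Every 1 d value lay above every value of the other days. SERPINA3-7 rose by 0.45 (1.37-fold, SE 0.06, adjusted p = 2.95e-06) and fell by 0.52 from 1 d to 9 d (SE 0.06, adjusted p = 3.45e-07), although it is close to the top of the scale. Its second probe set gave 0.27 and -0.41.

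SERPINA1, alpha1-antitrypsin, the main elastase inhibitor of plasma, stayed between 14.03 and 14.32 and was at 0.02 (SE 0.03) over calving. SERPINA11, its neighbour in the genome and a serpin of little-known function, ran from 11.28 to 11.51 (median 11.365) at -8 d, from 11.53 to 11.86 (median 11.665) at 1 d and from 11.24 to 11.76 (median 11.645) at 9 d. All 1 d values lay above the -8 d values. SERPINA11 rose by 0.31 at 1 d (SE 0.05, adjusted p = 4.47e-05; 8 of 8 cows) and by 0.24 at 9 d against -8 d (SE 0.05, adjusted p = 0.00159; 9 of 10 cows).

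In all, the values of 1 d and -8 d did not overlap for 5 genes: SERPINA3-7 and SERPINA11 were higher and VTN, PROC and SERPIND1 lower at 1 d (2.03% of all genes did not overlap). For 9 d and 1 d these were SERPIND1, which was higher at 9 d, and F5, SERPINF2 and SERPINA3-7, which were lower (0.754% of all genes). No gene of the 53 was free of overlap between 9 d and -8 d, beside 0.612% of all genes.

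**Figure D2:**
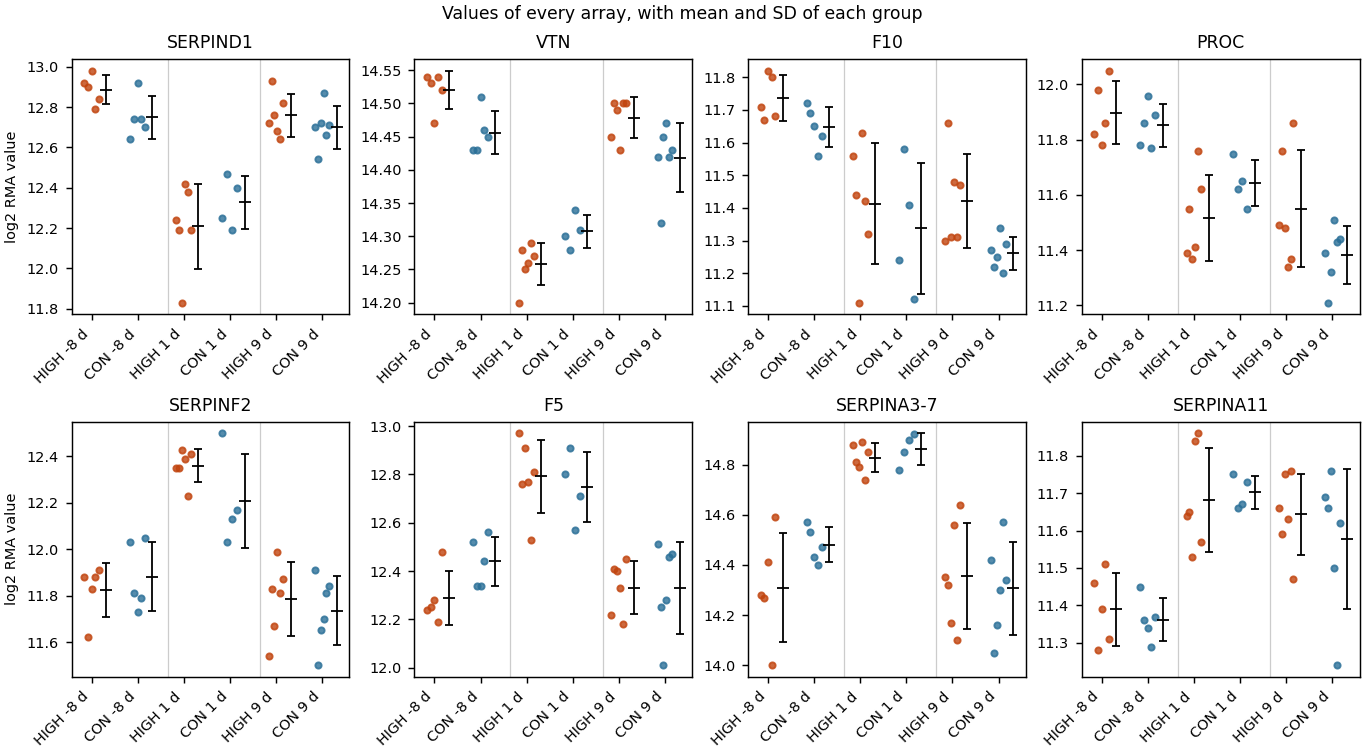
Log2 RMA value (vertical axes, which do not start at 0) of every array for 8 genes, with HIGH in red and CON in blue in the order of the days; bars are the mean and SD of each group. SERPIND1 and VTN dip at 1 d, F10 and PROC stay below -8 d at 9 d, SERPINF2, F5 and SERPINA3-7 peak at 1 d, and SERPINA11 stays above -8 d in 9 of 10 cows at 9 d.

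Of the 8 tissue and intracellular serpins, 3 rose over calving: SERPINA14, SERPINB8 and SERPINI2. SERPINA14 is the uterine serpin, or uterine milk protein, a secretory product of the endometrium of ruminants in pregnancy. At 1 d its HIGH values were 4.12, 7.03, 5.79, 4.38, 6.74 and 7.42 and its CON values 5.30, 4.17, 4.07 and 4.41. At -8 d the HIGH values were 4.29, 4.33, 3.73, 3.89 and 4.32 and the CON values 3.93, 3.93, 3.86, 3.95 and 3.97. At 9 d they ran from 3.96 to 4.27 in HIGH and from 3.84 to 4.22 in CON. The signal was thus near the lower end of the scale on -8 d and 9 d in all cows; at 1 d it differed widely between cows of 1 diet.

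SERPINA14 rose over calving by 1.20 (SE 0.26, adjusted p = 0.000921), and it was higher at 1 d in 8 of 8 cows. It fell by 1.13 from 1 d to 9 d (SE 0.25, adjusted p = 0.00178) in 9 of 10 cows. The second probe set gave 1.30 and -1.24, with 3.44 to 7.41 in HIGH at 1 d and CON values of 4.84, 3.59, 3.81 and 3.73 at 1 d. The gene lies beside SERPINA11, 1 coding gene away from SERPINA1.

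SERPINB8, an intracellular inhibitor of furin-like proteases, varied between cows on every day. At 1 d its HIGH values ran from 5.45 to 7.50, with a median of 5.915, and its CON values were 7.51, 7.02, 7.64 and 6.52. At -8 d the HIGH values were 5.46, 5.62, 6.47, 5.68 and 5.75 and the CON values 6.98, 6.40, 6.17, 5.99 and 5.60. SERPINB8 rose by 0.65 (SE 0.21, adjusted p = 0.0214) in 8 of 8 cows and fell by 0.64 from 1 d to 9 d (SE 0.20, adjusted p = 0.0259). The first call was lost without CON 1 d replicate 3 (0.57, adjusted p = 0.0632). The second was lost without that array (-0.57, adjusted p = 0.0777), without CON 1 d replicate 1 (-0.60, adjusted p = 0.0563) and without HIGH 9 d replicate 2 (-0.58, adjusted p = 0.0502).

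SERPINI2 was near the lower end of the scale (3.11 to 4.21) and rose by 0.30 (SE 0.08, adjusted p = 0.00972). SERPINB1 and SERPINB9, which guard leukocytes against elastase and granzyme B, were at -0.18 (SE 0.12) and -0.16 (SE 0.11) over calving, when 4 of 7 neutrophil markers rose. SERPINB6 (-0.13, SE 0.10), SERPINE2, a thrombin inhibitor of tissues (0.01, SE 0.18), and SERPINI1, neuroserpin (0.07, SE 0.08), did not pass. None of the 8 genes was called at 9 d against -8 d.

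**Figure D3:**
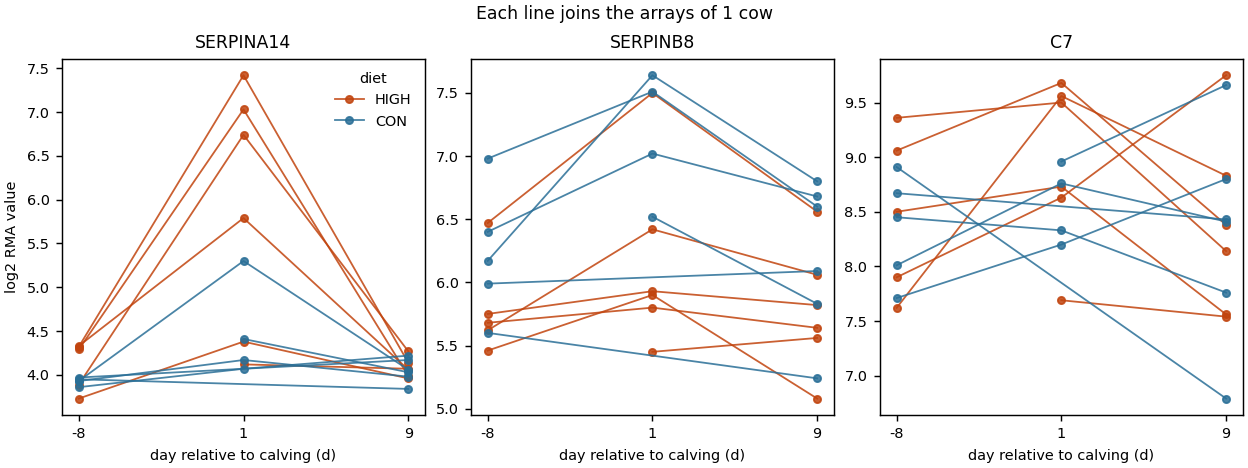
Log2 RMA value of SERPINA14, SERPINB8 and C7 against the day relative to calving, with 1 line for each cow (HIGH red, CON blue). SERPINA14 leaves a level near 4 at 1 d only, up to 7.42 in HIGH and 5.30 in CON; SERPINB8 is higher at 1 d in 8 of 8 cows with both days; C7 is higher at 1 d in 7 of 8 cows with both days, and its values spread from 6.79 to 9.75 over all arrays.

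Of the genes that matched by name only, C1QBP, a mitochondrial matrix protein, rose at 1 d by 0.23 (SE 0.05, adjusted p = 0.00198; 8 of 8 cows) and by 0.22 at 9 d against -8 d (SE 0.05, adjusted p = 0.00367; 9 of 10 cows). C1D, a nuclear cofactor of the RNA exosome, was at 0.11 (SE 0.10).

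**Figure D4:**
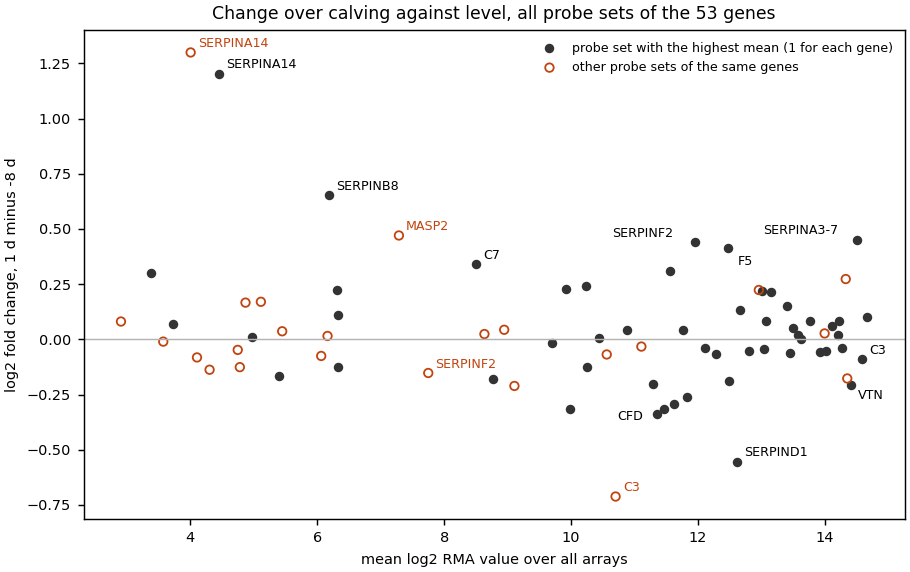
Log2 fold change at 1 d against -8 d (vertical axis) against the mean log2 RMA value over all arrays (horizontal axis) for the 77 probe sets of the 53 genes; filled points are the probe set used for each gene and open circles the others. The C3 probe set with a mean of 10.70 fell by 0.71 and the one with a mean of 14.59 fell by 0.09, while the labelled MASP2 circle (0.47) and the SERPINF2 circle (-0.15) lie on the other side of 0 from the filled points of their genes (-0.20 and 0.44).

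Other genes of the same pathways, from lists written with earlier results of these data known, changed in both directions over calving. For every list here, the shares over all genes at 1 d against -8 d were 16.5% higher and 12.3% lower. Of 20 other coagulation and fibrinolysis genes, 6 rose and 2 fell. FGB, the beta chain of fibrinogen, rose by 0.88 (SE 0.15), A2M, a broad protease inhibitor, by 1.21 (SE 0.16) and GGCX, the vitamin K-dependent carboxylase that modifies F2, F9, F10, PROC and PROS1, by 0.32 (SE 0.08). HRG, histidine-rich glycoprotein, fell by 1.20 (SE 0.22). THBD, thrombomodulin, rose by 0.69 (SE 0.13) and was at 0.68 (SE 0.13) at 9 d against -8 d. GGCX was still above -8 d at 9 d (0.28, SE 0.08), when F9, F10 and PROC were below it. The median of this list was -0.00, beside 0.000355 for all genes.

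Of 9 lectin pathway and collectin genes, 1 rose and 4 fell over calving (median -0.02). At 9 d against -8 d, 5 of them fell (median -0.26), beside 5.08% of all genes. FCN1, ficolin, rose by 0.58 (SE 0.12), and COLEC11, a collectin that binds the MASP proteases, fell by 0.61 (SE 0.08). MBL1, a mannose-binding lectin, fell by 0.49 at 9 d against -8 d (SE 0.11). Of 11 complement receptors and membrane regulators, 4 rose and 2 fell over calving (median 0.02). CLU, clusterin, which like VTN binds the forming pore, fell by 0.48 (SE 0.08), and CD55, which dissolves C3 convertases, rose by 0.93 (SE 0.33). Of 14 other plasma protease inhibitors, 3 rose and 3 fell (median 0.01), with ITIH4 at 1.53 and ITIH2 at -0.43. Of 13 acute phase signalling genes, 2 rose and 3 fell (median -0.06). The rises were in CEBPB (0.44) and STAT3 (0.29), and the falls in NFKBIA (-0.67), CEBPD (-0.33) and IL6R (-0.27). Of 4 hepatocyte nuclear factors, HNF4A (0.50, SE 0.13) and FOXA3 (1.06, SE 0.25) rose (median 0.22).

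The diets were compared to ask whether energy intake before calving changed these genes. None of the 53 genes passed by limma for HIGH against CON at -8 d, 1 d or 9 d (background 0%, 0.0109% and 0% of all genes), nor for diet by time at 1 d or 9 d against -8 d (0% in each). At an unadjusted p under 0.05 there were 1, 5 and 5 genes on the 3 days (1.89%, 9.43% and 9.43%, beside 4.29%, 8.25% and 3.04% of all genes). For diet by time there were 3 at 1 d (5.66%, beside 7.57%) and 0 at 9 d (0%, beside 2.91%).

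At -8 d the smallest p-values were those of C1QB (0.31, SE 0.15, adjusted p = 1.00 by limma), CFD (0.32, SE 0.16) and C1QC (0.30, SE 0.15). C1QB was 11.02 ± 0.20 (SD, n = 5) in HIGH and 10.70 ± 0.20 (n = 5) in CON. The mean of the Kupffer cell and macrophage markers on an array ran from 9.33 to 9.66 in HIGH and from 9.02 to 9.35 in CON at -8 d. It was higher where C1QB was higher, and its part in that difference was not tested.

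At 1 d the smallest p-values were those of SERPINA14 (1.43, SE 0.39, adjusted p = 0.318 by limma), C8A (-0.18, SE 0.06, adjusted p = 0.429) and SERPINB8 (-0.95, SE 0.31, adjusted p = 0.44). SERPINA14 averaged 5.91 ± 1.40 (SD, n = 6) in HIGH and 4.49 ± 0.56 (n = 4) in CON, and the ranges overlapped. Without HIGH 1 d replicate 1, which had 4.12, its difference was 1.78 with an adjusted p of 0.0485, so this call rests on which arrays are included. SERPINB8 averaged 6.17 ± 0.72 (n = 6) in HIGH and 7.17 ± 0.51 (n = 4) in CON. The same order held at -8 d (medians 5.68 in HIGH and 6.17 in CON) and at 9 d (medians 5.73 in HIGH and 6.345 in CON). C8A averaged 12.97 ± 0.10 in HIGH and 13.15 ± 0.08 in CON.

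At 9 d F12 (0.25, SE 0.11), C1S (-0.13, SE 0.06) and F10 (0.16, SE 0.08) had the smallest p-values, each with an adjusted p of 0.998 by limma. For diet by time at 1 d these were SERPINA14 (1.28, SE 0.52, adjusted p = 0.621), VTN (-0.11, SE 0.05, adjusted p = 0.637) and SERPIND1 (-0.25, SE 0.11, adjusted p = 0.688). For 9 d they were SERPINA3-7 (0.22, SE 0.12), F2 (0.07, SE 0.05) and C1QB (-0.30, SE 0.19), with an adjusted p of 1.00 by limma. A p that misses the threshold does not show that the diets had the same effect.

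The changes over time had the same sign in both diets for all 21 genes called over calving, all 8 called at 9 d against -8 d and all 18 called from 1 d to 9 d. Each averaged change is the mean of the HIGH and CON changes, so this agreement among called genes is largely fixed by the selection. It is a description and no test of agreement between the diets. Fitted within each diet, 19 of the 53 genes were called at 1 d against -8 d in HIGH (35.8%, beside 21.6% of all genes) and 8 in CON (15.1%, beside 8.03%), so fewer calls in CON were also seen over all genes. The 8 genes called within CON were also called within HIGH. CON had 4 arrays at 1 d and HIGH 6, and a call in 1 diet alone does not show that the diets differ. SERPINA14 rose by 1.85 within HIGH and was at 0.56 within CON, where it did not pass.

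**Figure D5:**
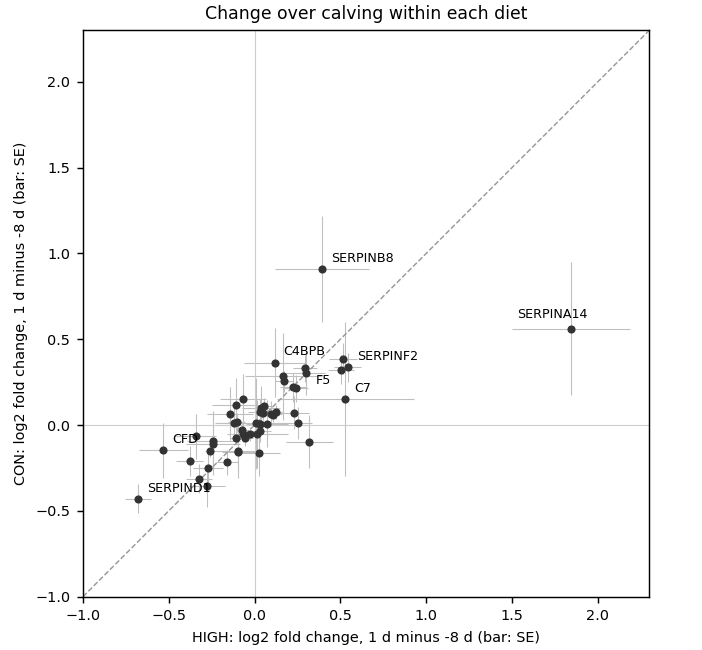
Log2 fold change at 1 d against -8 d within HIGH (horizontal axis) and within CON (vertical axis) for the 53 genes, with SE as bars and the line of equal change dashed. SERPINA14 lies to the right of the line (1.85 in HIGH, 0.56 in CON) and SERPINB8 above it (0.39 in HIGH, 0.91 in CON); no diet by time difference passed.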

How the data were processed

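Liver RNA of 32 biopsies was measured on Affymetrix bovine arrays. The authors deposited log2 values, made with Affymetrix Expression Console 1.1 and RMA per the submitters' processing notes; RMA settings and array scan batches are not given in the sources used here. The table had 24128 probe sets, of which 24016 were tested after removal of 112 controls, with no filter on level. Gene identifiers of the array annotation gave 13292 probe sets 1 symbol, 86 several and 10638 none. Neighbouring genes are from the RefSeq gene table of a later assembly, where all 53 genes were found, and no positions are given.

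The fit was limma 3.58.1 in R 4.3.3: 6 group means, cow as a random block (consensus correlation 0.138), empirical Bayes with a mean-variance trend, two-sided, Benjamini-Hochberg over the 24016 probe sets, threshold 0.05. Cow numbers in the labels pair the arrays, not the replicate numbers of the titles: the mean correlation of residuals was 0.323 between 2 days of 1 cow (28 pairs) and -0.0638 between different cows of a diet (142 pairs). The number of arrays limits the precision.

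The genes, roles and lists were chosen with earlier results of these data known. Per comparison of days the named genes were up to 10 rises and 10 falls past the threshold and a set of well-known members, and per diet comparison the 3 smallest p. Alternatives changed the block, samples, level filter, moderation, centring, weights and choice of probe set, and left out each array in turn. The fit was also run on simulated data, whose outcome is not given here and is not used as support. Figures were drawn with matplotlib 3.10.9.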

Additional observations from a re-analysis of the deposited data

Results flagged for a closer look

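In 318 groups of 1 gene on 1 day in 1 diet, 22 values lay far from the others of their group by Dixon's criterion, in 19 genes. Chance alone gives about 1 in 20 groups. Of these, 4 were on the array CON 9 d replicate 2, where C1R was 13.27, C9 13.87, SERPING1 13.56 and VTN 14.32, each the lowest of its group. Without that array, 21 genes were called at 1 d against -8 d, 6 at 9 d against -8 d and 15 from 1 d to 9 d. At 1 d, C1S (13.57) and FGG (14.73) were the lowest of their group in CON replicate 2, and C8B (12.54) in CON replicate 1. C4BPB was lowest (9.79, the others 10.79 to 10.86) and SERPINF1 highest (12.85) in CON 1 d replicate 4. In HIGH at 1 d, CFB was lowest in replicate 5 (14.15) and C4BPA in replicate 2 (13.36). At -8 d in HIGH, C9 was lowest in replicate 4 (14.05), VTN in replicate 3 (14.47), SERPINF2 in replicate 2 (11.62), SERPINB1 in replicate 5 (8.46) and C1D in replicate 1 (5.63), while PLG was highest in replicate 5 (13.25) and SERPINB8 in replicate 3 (6.47). At 9 d in HIGH, MASP1 was lowest in replicate 4 (6.02), C6 in replicate 1 (13.34) and SERPINI1 in replicate 2 (3.09), and C1D was highest in replicate 4 (6.79).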

How the results depend on the processing

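Over the alternatives that left out no array, 19 to 23 genes were called at 1 d against -8 d, 5 to 10 at 9 d against -8 d and 14 to 22 from 1 d to 9 d. Leaving out each array in turn gave 20 to 22, 6 to 9 and 14 to 19. With cow as a fixed replicate block the counts were 23, 8 and 22, and with no replicate block 20, 6 and 14. Only the 5 genes called at 9 d against -8 d in the cows with all 3 days differed from the count of 8 by more than 1.5 times. No diet or diet by time call was made, except 0 to 1 genes for HIGH against CON at 1 d without 1 array, which was SERPINA14 without HIGH 1 d replicate 1. With the probe set of largest SD, F9 at 1 d against -8 d turned to 0.0153, SERPING1 to -0.0327, F2 at 9 d against -8 d to 0.0045 and F2 for diet by time at 9 d to -0.0139. F2 at 9 d against -8 d was 0.0073 with only the cows with all 3 days. At 9 d against -8 d and without 1 array in turn, PLG ran from -0.00553 to 0.0273 and SERPING1 from -0.0265 to 0.000218, neither called. The cause of these changes was not tested.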
